A study of Rattus norvegicus with 6 samples.

Results

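Transcripts of 10 T and natural killer (NK) cell genes were followed in donor hearts of 2 ages on day 1 after transplantation. The genes, Cd3e, Cd3d, Cd3g, Cd2, Cd4, Cd8a, Nkg7, Prf1, Gzmb and Klrd1, were taken by symbol from the deposited table of read counts. All 10 were found among the 22250 genes listed, and 8 of the 10 had enough reads to be tested. RNA-Seq was performed on left ventricular myocardium of Sprague-Dawley rats of the genotype labelled WT. The 3 young donor hearts (animals 3, 13 and 15) came from rats of 10 weeks and the 3 aged donor hearts (animals 3, 4 and 7) from rats of 1 year, and the number 3 marks a different heart in each group. All 6 hearts had been arrested and stored cold in University of Wisconsin solution, then placed heterotopically, in a position without normal loading, into young rats, and the animals studied were male. The libraries do not separate RNA of donor cells from RNA of recipient cells that had entered the graft. The question addressed was how far RNA of T and NK lymphocytes differed between young and aged donor hearts at this early time.

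T cells recognise antigen through a receptor whose signal is carried by the CD3 chains, encoded by Cd3e, Cd3d and Cd3g, with CD4 or CD8 as co-receptor for class II or class I major histocompatibility complex (MHC) molecules. NK cells and cytotoxic T cells kill by releasing granules that hold perforin and granzymes. In a transplanted heart, neutrophils and monocytes enter within hours, whereas T cells specific for the graft expand over days. The rats of the study were syngeneic. The paper therefore describes rejection as not significant, and no immunosuppressants were given. In the rat, CD4 is also carried by monocytes and macrophages, and CD8 alpha also by NK cells and by some monocytes and activated macrophages, so neither gene marks T cells alone.

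Between 21457509 and 24560869 reads were counted on genes in each heart. Counts were scaled by TMM (the trimmed mean of M values), with factors from 0.733 to 1.24, and are given as counts per 1000000 (CPM), in which 3 reads correspond to 0.0985 to 0.191 CPM. Libraries stood apart within the groups. Young animal 15 carried far more leukocyte RNA than the other 2 young donor hearts, with 3417 reads of Ptprc, the gene of the pan-leukocyte antigen CD45, against 401 and 370. In aged animal 3, the 9 cardiomyocyte markers listed in the table summed to 115.1 CPM, against 4662 and 4852 CPM in the other aged donor hearts and 8500 to 63019 CPM in the young donor hearts, although the tissue was labelled as myocardium. Values with and without young animal 15 are therefore given where that library decided them.

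Of the 8 T and NK cell genes tested, Cd2 passed the limits as higher in aged donor hearts, and 0 were lower. The study's limits were used, namely a fold change over 1.5 (or under 0.67) together with p under 0.05 before adjustment. By the same limits, 13.2% of all 13784 genes tested were higher and 19.0% were lower. No member had a Benjamini-Hochberg adjusted p-value under 0.05 in edgeR (0 of 8), as was the case for all genes tested (0 of 13784), whereas 1 member and 4731 genes had an unadjusted p-value under 0.05. The adjusted result depended on the tool, as DESeq2's Wald test gave an adjusted p under 0.05 for 1 of 8 members (Cd2) and 3592 genes, and limma-voom with quality weights for 3 of 8 (Cd2, Cd8a and Nkg7) and 8416 genes. Every aged donor heart lay above every young donor heart for Cd2 and Cd8a, and the opposite held for 0 of the 8. Over all genes tested, these shares were 21.0% above and 20.6% below. The median log2 fold change (log2FC, aged over young) was 0.13 over the 8 genes and 0.016 over all genes tested. Without young animal 15, Cd2 and Cd8a were past the limits, 2 of 8 members, where 26.9% of all genes were higher. In bulk tissue, fewer cells of a type and less RNA per cell cannot be told apart.

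The CD3 genes had few reads in every heart. The table places them together on chromosome 8, on the build Rnor_6.0 named in the submitters' processing notes, with Cd3g from 49274960 to 49280901, Cd3d from 49282460 to 49287110 and Cd3e from 49297608 to 49308806. Cd3e (ENSRNOG00000016069), the epsilon chain, had 14, 21 and 7 reads in young animals 3, 13 and 15, and 41, 45 and 12 reads in aged animals 3, 4 and 7. The groups overlapped, as aged animal 7 lay below 2 of the young donor hearts. Scaled, Cd3e was at 0.824 ± 0.523 CPM (SD, n = 3) in young and 1.17 ± 0.641 CPM (SD, n = 3) in aged donor hearts. Its log2FC was 0.53 (SE 0.709, adjusted p = 0.602 by the edgeR quasi-likelihood test, Benjamini-Hochberg adjusted), which was less than the spread between hearts. Cd3g (ENSRNOG00000015945), the gamma chain, had 18, 9 and 16 reads in young and 13, 20 and 16 reads in aged donor hearts. Those ranges overlapped nearly in full, and the log2FC was -0.37 (SE 0.448, adjusted p = 0.572 in edgeR). Cd3d (ENSRNOG00000015994), the delta chain, had 10, 0 and 3 reads in young and 7, 10 and 1 reads in aged donor hearts, and was too low to be tested. The reads of the 3 CD3 genes summed to 42, 30 and 26 reads in young donor hearts, while the aged ones had 61, 75 and 29 reads. At this depth a difference in CD3 transcripts between the groups was not detectable, and this does not show that their levels were equal. The zeta chain gene Cd247, the remaining signalling chain of the receptor, also had few reads, with 22, 13 and 5 reads in young and 48, 24 and 13 reads in aged donor hearts.

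**Figure D1:**
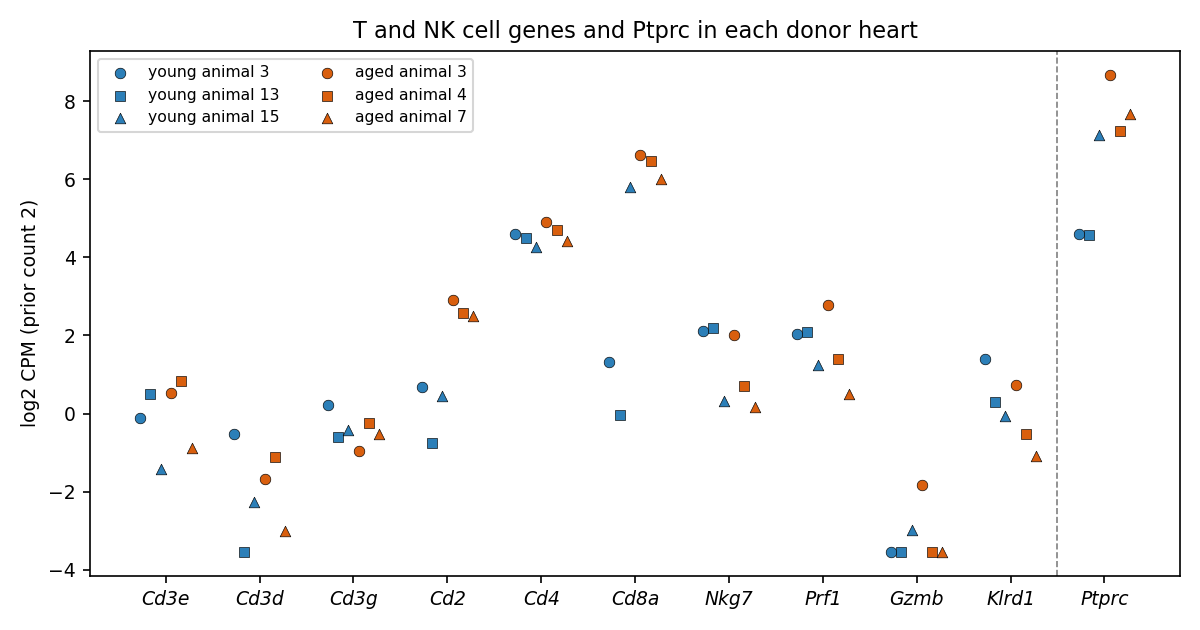
Log2 CPM (prior count 2, vertical axis) of the 10 T and NK cell genes and of Ptprc in each of the 6 donor hearts, with young donor hearts in blue, aged donor hearts in orange and 1 symbol for each animal. For Cd2 and Cd8a every aged donor heart lies above every young donor heart, for Cd8a young animal 15 lies just below the aged donor hearts, and the other 8 of the 10 genes overlap between the groups.

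Cd2 had the clearest difference between the groups. CD2 is an adhesion receptor of T and NK cells, and the gene (ENSRNOG00000015821) lies on chromosome 2 from 203666637 to 203680083. It had 25, 8 and 31 reads in young animals 3, 13 and 15, and 227, 154 and 144 reads in aged animals 3, 4 and 7. The 3 young donor hearts were all low, young animal 15 included, and the groups were well apart. Cd2 was higher by 5.65-fold, at 1.10 ± 0.526 CPM (SD, n = 3) in young and 6.27 ± 1.04 CPM (SD, n = 3) in aged donor hearts. Its log2FC was 2.50 (SE 0.447). The unadjusted p from edgeR was 0.00113 and the adjusted p, with Benjamini-Hochberg adjustment over all genes, was 0.0916. This was the smallest adjusted p of all genes tested, and several genes named below share it although their unadjusted p-values differ. The adjusted p of Cd2 was 4.8e-06 in DESeq2 and 0.0019 in limma-voom, and 0.0086 in edgeR without young animal 15. The exact permutation test of log2 CPM gave p = 0.1 (two-sided), the smallest p that 3 hearts against 3 allow. When 1 heart at a time was omitted, the log2FC of Cd2 ran from 2.17 to 2.78, and the gene was past the limits in 6 of 6. Its ligand in rodents, encoded by Cd48, had a log2FC of 0.053 (SE 0.223). Of the other members tested, none passed the limits. Their log2FC values were 2.08 for Cd8a and from -0.81 (Klrd1) to 0.53 (Cd3e) for the rest. The cells that carried the Cd2 RNA were not identified.

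Cd8a was the most variable of the 10 genes. It encodes the alpha chain of CD8, and the gene (ENSRNOG00000007178) lies on chromosome 4 from 99239115 to 99243351. It had 40 and 14 reads in young animals 3 and 13 but 1350 reads in young animal 15, and 3013, 2330 and 1664 reads in aged animals 3, 4 and 7. Young animal 15 was thus close to the aged donor hearts and far from the other young donor hearts. In CPM, Cd8a was at 2.42, 0.890 and 55.8 in young and at 99.0, 88.3 and 63.8 in aged donor hearts, without overlap (exact permutation test, two-sided, p = 0.1). The log2FC was 2.08 with all hearts (SE 1.37, unadjusted p = 0.176 and Benjamini-Hochberg adjusted p = 0.297 from edgeR), which did not pass the limits. Without young animal 15 it was 5.69 (unadjusted p = 3.3e-05 and adjusted p = 0.00131 from edgeR), and across the 6 fits without 1 heart it ran from 1.52 to 5.69. Limma-voom with quality weights, which gives less weight to a library that departs from its group, gave 5.40.

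The beta chain gene Cd8b, which lies 37091 bases from Cd8a in the table, moved beside it. It had 5, 9 and 149 reads in young and 415, 270 and 344 reads in aged donor hearts, so that young animal 15 was again the highest of its group. The groups did not overlap, and the log2FC of Cd8b was 2.36 (SE 1.04, adjusted p = 0.160 by the edgeR quasi-likelihood test, Benjamini-Hochberg adjusted). Without young animal 15 it was 4.85 (adjusted p = 0.00117 from edgeR), the single fit of the 6 without 1 heart in which Cd8b was past the limits. Per gene length, in FPKM (reads divided by gene length and library total), the level of Cd8a was 8.47, 1.65 and 9.59 times that of Cd8b in young and 7.68, 9.13 and 5.12 times in aged donor hearts.

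The levels of the CD8 and CD3 genes parted in the hearts rich in leukocyte RNA. The FPKM level of Cd8a was 3.09 and 0.720 times that of Cd3e in young animals 3 and 13, but 208.3 times in young animal 15 and 79.4, 55.9 and 149.8 times in aged animals 3, 4 and 7. Those 4 hearts differed from young animals 3 and 13 in Cd8a, while their Cd3e level, from 0.210 to 1.29 FPKM, spanned the 0.435 and 0.653 FPKM of young animals 3 and 13. The summed monocyte and macrophage markers were also high in these 4 hearts, and their part in the result was not tested. The 11 markers summed to 369.0 and 344.3 CPM in young animals 3 and 13, 2420 CPM in young animal 15 and 3801 to 7274 CPM in aged donor hearts, and none was at 0 in all hearts. Lyz2 alone made up 1406 of the 2420 CPM in young animal 15, and the single markers differed there. Cd68 was at 148.9 CPM in young animal 15 against 8.83 and 6.87 CPM in young animals 3 and 13, whereas Adgre1 was at 7.15 CPM against 9.14 and 8.58 CPM, and C1qa at 40.5 CPM against 37.7 and 35.0 CPM. Of these 11 markers, 5 (Adgre1, Cd163, Mrc1, C1qb and Mertk) were past the limits and higher, and 0 were lower. Among all genes tested these shares were 13.2% and 19.0%.

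**Figure D2:**
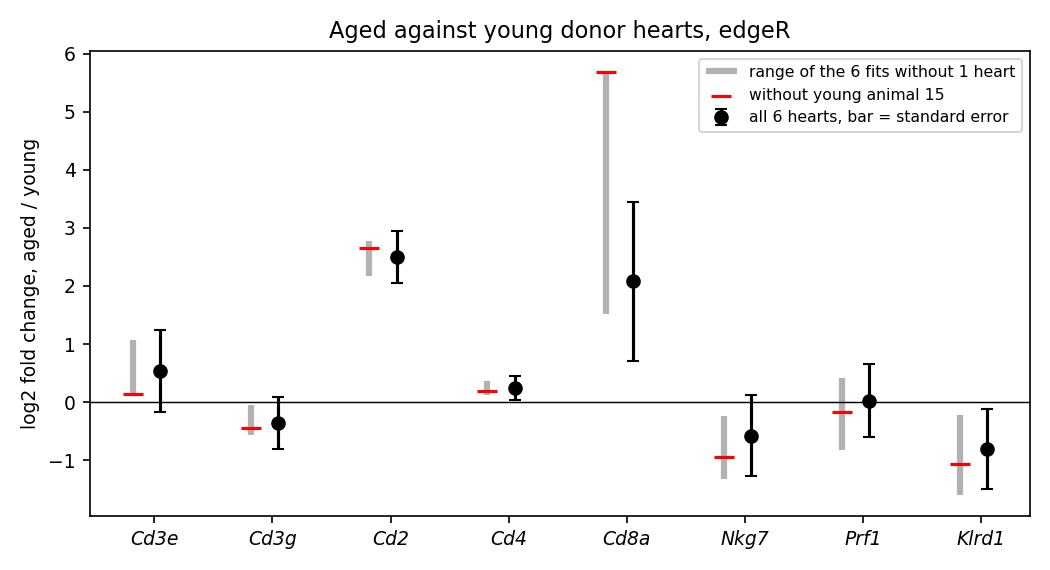
Log2 fold change of aged over young donor hearts (vertical axis) for the 8 T and NK cell genes tested, as black points with standard errors from edgeR, beside grey bars that span the 6 fits without 1 heart and a red mark for the fit without young animal 15. Cd2 stays between 2.17 and 2.78, whereas Cd8a reaches 5.69 without young animal 15.

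The sequences before the start sites of 3 members are shown to set side by side a gene that rose (Cd2), the gene that varied most (Cd8a) and a gene without a detectable difference (Cd3e). They come from RefSeq on the build GRCr8, which is not the build of the deposited coordinates, and 8 of the 10 members had an entry. Each runs 5′ to 3′ over the 250 bases before the gene's start, at chr2:191412660-191412909 on the minus strand for Cd2, chr4:104923866-104924115 on the plus strand for Cd8a and chr8:54211771-54212020 on the minus strand for Cd3e. Capitals mark 3 motifs searched on both strands, namely TGTGGT, the core bound by RUNX factors, CAGGAAG, bound by ETS factors, and GAGGAA, the core bound by the myeloid and lymphoid ETS factor PU.1.
Cd2: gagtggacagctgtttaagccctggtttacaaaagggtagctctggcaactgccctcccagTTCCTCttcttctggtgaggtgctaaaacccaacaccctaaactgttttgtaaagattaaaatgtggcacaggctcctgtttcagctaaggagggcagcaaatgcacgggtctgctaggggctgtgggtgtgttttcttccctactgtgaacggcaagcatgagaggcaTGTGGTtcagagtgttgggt
Cd8a: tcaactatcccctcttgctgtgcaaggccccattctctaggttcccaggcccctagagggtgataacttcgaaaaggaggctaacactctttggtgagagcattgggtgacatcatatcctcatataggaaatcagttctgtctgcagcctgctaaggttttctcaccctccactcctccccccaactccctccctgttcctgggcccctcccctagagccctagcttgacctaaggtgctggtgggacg
Cd3e: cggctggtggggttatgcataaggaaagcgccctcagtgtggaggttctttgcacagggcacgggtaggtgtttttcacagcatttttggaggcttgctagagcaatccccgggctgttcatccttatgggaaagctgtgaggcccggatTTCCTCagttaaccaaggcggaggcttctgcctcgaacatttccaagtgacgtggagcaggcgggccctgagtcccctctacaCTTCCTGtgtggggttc
The Cd2 stretch held TGTGGT 1 time and GAGGAA 1 time on the opposite strand, the Cd3e stretch held CAGGAAG and GAGGAA 1 time each, both on the opposite strand, and the Cd8a stretch held 0 of the 3. Among 33469 such stretches, 14.5% held TGTGGT, 10.2% CAGGAAG and 23.3% GAGGAA, so these short motifs are common. A match describes letters and is no evidence of binding.

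Cd4 was nearly level between the groups. It encodes the co-receptor for MHC class II, and the gene (ENSRNOG00000016294) lies on chromosome 4 from 157383052 to 157408176. It had 397, 356 and 462 reads in young and 917, 689 and 557 reads in aged donor hearts. Scaled, the ranges overlapped, from 19.1 to 24.0 CPM in young and from 21.3 to 30.1 CPM in aged donor hearts. The log2FC was 0.24 (SE 0.204, adjusted p = 0.412 by the edgeR quasi-likelihood test, Benjamini-Hochberg adjusted). Scaling by library totals alone, without TMM, shifted the median over all genes to 0.46, and there Cd4 was past the limits with a log2FC of 0.71. Cd4 was at 13.1 to 56.6 times the FPKM level of Cd3e over the 6 hearts.

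Of the 4 cytotoxic genes 3 were tested, and 0 passed the limits in either direction. Nkg7 (ENSRNOG00000017749, chromosome 1 from 98492828 to 98493978), which encodes a protein of cytotoxic granule membranes, had 70, 70 and 28 reads in young and 120, 41 and 27 reads in aged donor hearts. The groups overlapped, and its log2FC was -0.58 (SE 0.697, adjusted p = 0.564 from edgeR), which ran from -1.32 without aged animal 3 to -0.24 without aged animal 7. Prf1 (ENSRNOG00000000562, chromosome 20 from 30915213 to 30921382), the gene of the pore-forming protein perforin, had 67, 65 and 55 reads in young donor hearts, and the aged ones had 205, 67 and 35 reads. Aged animal 3 was the highest and aged animal 7 the lowest of the 6 hearts, and the log2FC of Prf1 was 0.028 (SE 0.624, adjusted p = 0.976 from edgeR). Without aged animal 3 it was -0.83 and without young animal 15 it was -0.17, so its sign is not determined. Klrd1 (ENSRNOG00000060246, chromosome 4 from 163358009 to 163369854), which encodes CD94, a chain of the NKG2 receptors of NK cells, had 42, 18 and 21 reads in young and 48, 16 and 10 reads in aged donor hearts. In CPM it was at 0.867 to 2.54 in young and 0.383 to 1.58 in aged donor hearts, and its log2FC was -0.81 (SE 0.681, adjusted p = 0.408 from edgeR), which ran from -1.59 without aged animal 3 to -0.22 without young animal 3. With quality weights in limma-voom, Nkg7 and Klrd1 were past the limits and lower, with log2FC values of -1.48 and -1.65.

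Gzmb (ENSRNOG00000045973), the gene of granzyme B, was near the detection limit. It had 0, 0 and 1 reads in young and 6, 0 and 0 reads in aged donor hearts, and was not tested. A count of 0 allows up to 3 reads, which was at most 0.191 CPM in any heart. The table gives this gene a span on chromosome 15 from 36327721 to 36472346 that overlaps 2 other listed genes, and near-identical granzyme genes could share its reads, so its value is uncertain. Among related granzymes, Gzmc, Gzmf and the 2 entries of Gzmn were listed with 0 reads in every heart, and Gzma had 0, 5 and 3 reads in young and 39, 6 and 2 reads in aged donor hearts.

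Within a heart, the order of the members' FPKM levels differed between young animals 3 and 13 and the other hearts. Cd4 was the highest member in young animals 3 and 13, at 10.6 and 9.48 FPKM, followed by Nkg7. In young animal 15 and in the 3 aged donor hearts Cd8a was the highest, at 43.7 to 88.4 FPKM, followed by Cd4 at 11.9 to 21.3 FPKM. In aged donor hearts Cd2 was next, at 5.27 to 7.61 FPKM. The CD3 genes and Klrd1 lay within 0 to 1.39 FPKM in all hearts, ranges that do not separate them from each other, and Gzmb was the lowest or tied for the lowest in every heart.

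Set against total leukocyte RNA, measured by Ptprc, the members divided. Ptprc rose from 63.0 ± 67.7 CPM (SD, n = 3) to 253.7 ± 137.5 CPM (SD, n = 3), a log2FC of 2.01 (SE 0.828, unadjusted p = 0.0490 and adjusted p = 0.144 from edgeR with Benjamini-Hochberg adjustment). It was past the limits in 1 of the 6 fits without 1 heart, that without young animal 15 (log2FC 3.45), and ran from 1.48 to 2.28 in the others. The log2 ratio of Cd2 to Ptprc averaged -5.31 ± 1.38 in young and -5.20 ± 0.553 in aged donor hearts (SD, n = 3 each), a difference of 0.11 that was less than the spread between hearts (exact permutation test, two-sided, p = 0.9). Young animal 15 was the lowest heart in this ratio, at -6.69, against -3.93 and -5.31 in young animals 3 and 13. The aged donor hearts were at -5.76, -4.66 and -5.17. The log2 ratio of Cd8a to Ptprc was 1.58 higher in aged donor hearts, with overlap between the groups (exact permutation test, two-sided, p = 0.3). That overlap came from young animal 15, at -1.34. Young animals 3 and 13, at -3.28 and -4.60, lay below every aged donor heart (-2.05, -0.76 and -1.66). The means of the other 6 genes tested were 1.92 to 3.25 lower on the log2 ratio scale in aged donor hearts, but the groups overlapped in all of these except Klrd1 (exact permutation test, two-sided, p = 0.1, the smallest p possible). Every aged donor heart thus lay below every young donor heart in 1 of 8 members, against 54.6% of all genes tested, since this ratio falls for most genes where Ptprc is high. Without young animal 15 it was 6 of 8 members, against 93.7% of all genes.

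**Figure D3:**
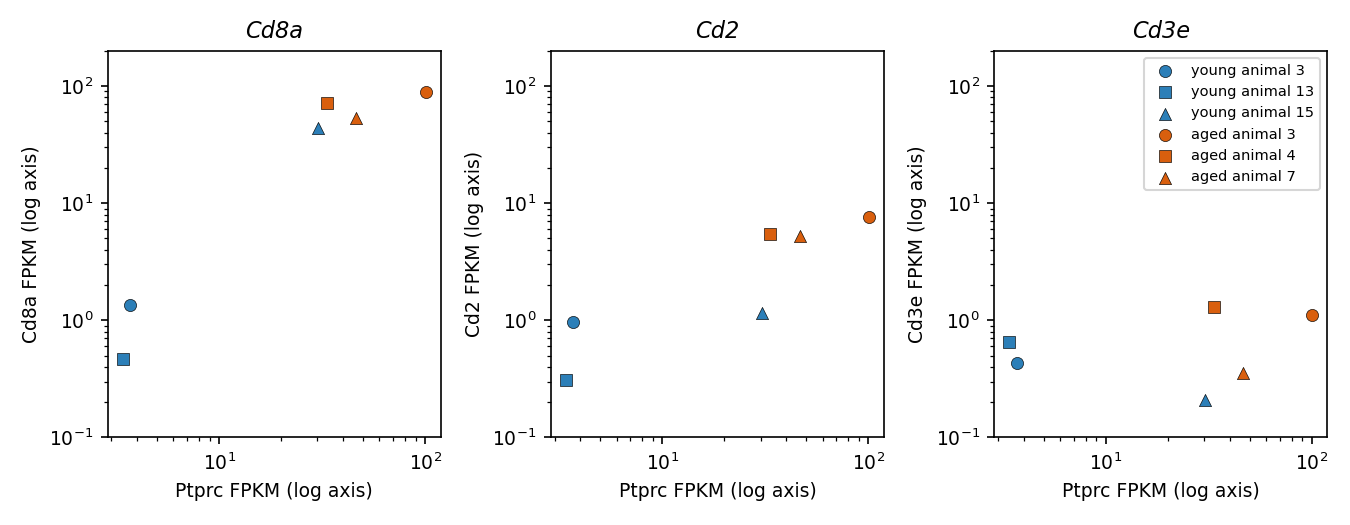
FPKM of Cd8a, Cd2 and Cd3e (vertical log axes) against FPKM of the pan-leukocyte gene Ptprc (horizontal log axes), 1 point for each of the 6 donor hearts, young in blue and aged in orange. Young animal 15 lies beside the aged donor hearts for Cd8a, at 43.7 FPKM, beside young animal 3 in its level of Cd2, at 1.15 FPKM, and is the lowest of the hearts for Cd3e, at 0.210 FPKM.

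The wider T and NK cell programme was described with 6 lists of 104 genes in all, of which 85 were tested. By the same limits 24 were higher and 8 lower in aged donor hearts, beside 13.2% and 19.0% of all genes. Of these 32 genes, 16 stayed past the limits in each of the 6 fits without 1 heart. No set test was run, and many listed genes are also used by myeloid cells. In the list of T cell receptor chains, co-receptors and proximal signalling, 4 of 17 genes tested were higher (Ctla4, Lck, Lcp2 and Fyb1) and 0 lower, with a median log2FC of 0.56. Lck (log2FC 0.69, SE 0.271) was past the limits in 1 of the 6 fits without 1 heart, that without aged animal 7. Fyb1 and Lcp2, which encode adaptor proteins shared by T cells and myeloid cells, rose by log2FC values of 2.21 (SE 0.659) and 1.79 (SE 0.622). Lcp2 was not past the limits without young animal 3 (1.51), young animal 13 (1.42) or aged animal 3 (1.52), and its log2FC was 2.83 without young animal 15. Ctla4, an inhibitory receptor of activated and regulatory T cells, rose on few reads, from 5, 3 and 10 in young to 43, 24 and 17 in aged donor hearts, a log2FC of 1.67 (SE 0.508), and was not past the limits without young animal 13 (1.45) or aged animal 3 (1.33).

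Of 11 lymphocyte transcription factors tested, 0 were higher and 2, Tox and Bcl11b, were lower, with a median log2FC of -0.60. A share of 2 in 11 is near the 19.0% of all genes that were lower. Tox had 455, 454 and 114 reads in young and 18, 64 and 47 reads in aged donor hearts, without overlap, and its log2FC was -3.66 (SE 0.845, adjusted p = 0.0916 from edgeR). Bcl11b, a factor that maintains T cell identity, had 97, 85 and 19 reads in young and 21, 10 and 5 reads in aged donor hearts, a log2FC of -3.22 (SE 0.871, adjusted p = 0.0919 from edgeR). Gata3 did not pass, with a log2FC of -1.76 (SE 0.777), although every aged donor heart lay below every young donor heart. Without young animal 15 the log2FC of Gata3 was -2.08 and past the limits. Ets1, which had the highest mean CPM of the list, was level at -0.018 (SE 0.364).

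Among 14 lymphocyte cytokine and homing receptors tested, 4 were higher, among them Il7r, Ccr7 and Il18rap, and 2 lower (Il2rb and Il12rb2). The median log2FC was 0.40, and the shares over all genes tested were 13.2% higher and 19.0% lower. The groups overlapped in Ccr7 and in Il2rb, and each was past the limits in 2 of the 6 fits without 1 heart. Il18rap, an accessory chain of the interleukin 18 receptor, had 47, 46 and 115 reads in young and 1090, 344 and 625 reads in aged donor hearts, a log2FC of 2.78 (SE 0.448, adjusted p = 0.0916 from edgeR). Il7r, the interleukin 7 receptor chain, had a log2FC of 2.29 (SE 0.663). S1pr1, also an endothelial gene, which had the highest mean CPM here, had a log2FC of 0.38 (SE 0.280) and did not pass.

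NK cell receptors and adaptors gave 4 higher genes (Klrb1b, Ncr3, Slamf7 and Hcst) and 0 lower among 13 tested, with a median log2FC of 0.80. Beside these stand 13.2% higher and 19.0% lower among all genes tested. Klrb1b was not past the limits without young animal 13 (1.60). Ncr3, which encodes the activating receptor NKp30, had 5, 7 and 43 reads in young and 459, 127 and 224 reads in aged donor hearts, and its log2FC was 3.44 (SE 0.786, adjusted p = 0.0916 from edgeR). The groups did not overlap in Ncr3, and aged animal 3 was the highest. Ncr1, the gene of the activating receptor NKp46, did not pass, with 55, 46 and 36 reads in young donor hearts and, in aged ones, 249, 40 and 98 reads. Slamf7 and Hcst, a receptor and an adaptor of NK cells, rose by log2FC values of 1.59 (SE 0.385) and 1.38 (SE 0.410), the latter not past the limits without aged animal 3 (1.04). Tyrobp, the adaptor DAP12 of NK and myeloid receptors, had 143, 131 and 2311 reads in young and 7974, 4313 and 4273 reads in aged donor hearts. Its log2FC of 2.39 (SE 1.01) did not pass, and without young animal 15 it was 4.57 and past the limits.

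In the list of cytotoxic granule and effector genes, 6 of 13 tested were higher and 2 lower, with a median log2FC of 1.03. Over all genes tested, 13.2% were higher and 19.0% lower. The higher genes, which many leukocytes use, were Srgn, Ctsc, Unc13d, Stx11, Stxbp2 and Serpinb9, the last an inhibitor of granzyme B. Of the 6 fits without 1 heart, Stx11 was past the limits in 4, and Stxbp2 and Serpinb9 in 3 each. Srgn, the granule proteoglycan serglycin, rose from 43.9 ± 2.91 to 148.1 ± 74.0 CPM (SD, n = 3 each), a log2FC of 1.75 (SE 0.383). Unc13d, needed for granule fusion, and Ctsc, the protease that activates granzymes and neutrophil proteases, rose by log2FC values of 1.13 (SE 0.268) and 1.08 (SE 0.291). Tnfsf10, which encodes the death ligand TRAIL, fell from 51.3 ± 15.8 to 5.06 ± 3.13 CPM (SD, n = 3 each), with 964, 981 and 803 reads in young and 245, 141 and 47 reads in aged donor hearts. Its log2FC was -3.34 (SE 0.582, adjusted p = 0.0916 from edgeR), and the other gene that fell was Xcl1, a chemokine of NK and CD8 T cells, which was not past the limits without young animal 3 (-2.15) or young animal 13 (-2.14). Ifng, the gene of interferon gamma, had 0 reads in each young donor heart and 2, 0 and 3 reads in aged donor hearts, and was not tested.

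Among ligands and cytokines that act on T and NK cells, 6 of 17 tested were higher (B2m, RT1-Da, RT1-Ba, RT1-Bb, Cxcl16 and Il18). The lower genes were 2 (Cxcl9 and Il15), and the median log2FC was 0.61. For all genes tested, the shares were 13.2% higher and 19.0% lower. Cxcl9, a chemokine that draws activated T cells, had 158, 180 and 145 reads in young and 74, 35 and 35 reads in aged donor hearts, without overlap, and its log2FC was -2.40 (SE 0.403, adjusted p = 0.0916 from edgeR). Il15, the cytokine that sustains NK cells, fell by 1.55 on the log2 scale (SE 0.423). Cxcl16 rose by a log2FC of 1.90 (SE 0.388), and B2m, the light chain of MHC class I, with the highest mean CPM of the list, by 0.83 (SE 0.322). B2m was past the limits in 2 of the 6 fits without 1 heart, those without young animal 15 (1.01) and aged animal 4 (0.99), and was at 0.61 to 0.87 in the others. RT1-Da and Il18 were also past the limits in 2 of these 6 fits each, and RT1-Ba and RT1-Bb in 3 each. Il2, the T cell growth factor gene, was listed with 0 reads in every heart.

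**Figure D4:**
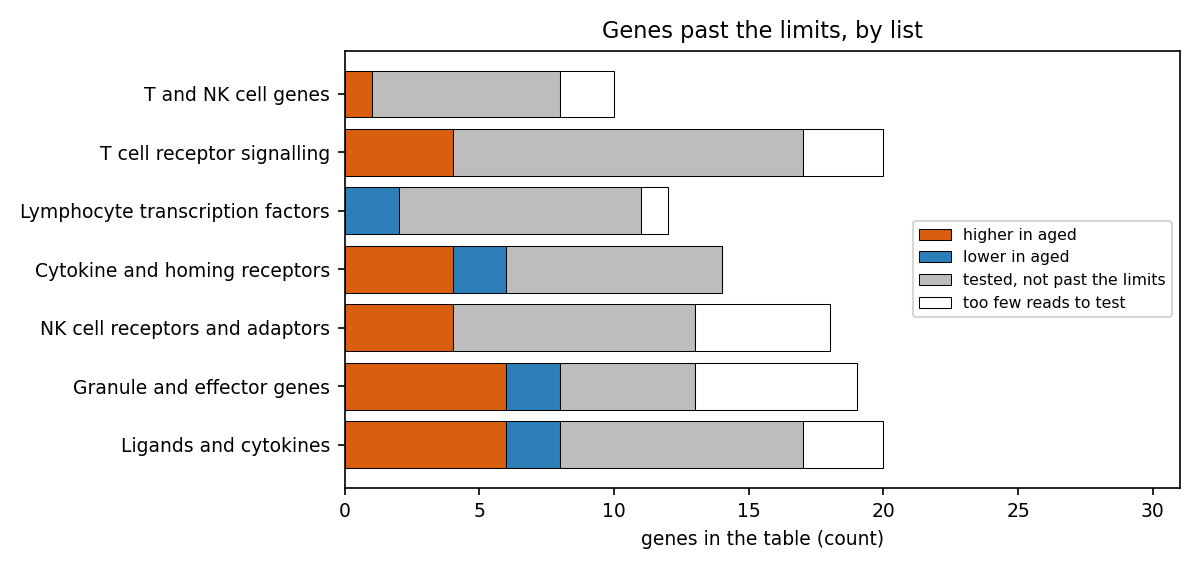
Number of genes in the table (horizontal axis) for the 10 T and NK cell genes and the 6 lists, divided into genes higher in aged donor hearts (orange), lower (blue), tested but not past the limits (grey) and with too few reads to test (white). Granule and effector genes and ligands hold 6 higher genes each, and transcription factors hold 0 higher and 2 lower genes.

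Markers of neutrophils and cardiomyocytes differed between the groups, and their part in the results on Cd2 and Cd8a was not tested. By the limits used above, 13.2% of all genes tested were higher and 19.0% were lower. Of 9 neutrophil markers tested, 8 were higher and 0 lower in aged donor hearts, and the 10 listed summed to 16.0 to 136.1 CPM in young and 347.2 to 1317 CPM in aged donor hearts, with Mpo at 3 or fewer reads in every heart. Of 5 B cell markers and of 6 dendritic cell markers tested, 0 were past the limits in either direction. The 8 B cell markers summed to 5.51 to 8.92 CPM in young and 6.56 to 19.5 CPM in aged donor hearts, and the dendritic cell markers to 42.4 to 97.4 and 105.2 to 150.8 CPM. Of 9 cardiomyocyte markers, 3 (Myh6, Myl2 and Pln) were lower and 0 higher, with a median log2FC of -3.18. In 8 of 9 every aged donor heart lay below every young donor heart, beside 20.6% of all genes tested. Young animal 15 was again apart from its group, with a sum of 8500 CPM against 57448 and 63019 CPM.

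The genes most like the members in pattern were found by the root mean square difference of centred log2 CPM over the 6 hearts, among 13586 genes tested with a mean of at least 0.5 CPM. For the mean of the 3 CD3 genes they were Tomm5, Htr1b and Pcyt1b, at 0.236 to 0.252 log2 units, genes with 6 to 63 reads in a heart, where counting error is large. For the mean of Nkg7, Prf1, Gzmb and Klrd1 they were Wdr86, Tspan15 and Ccl5, at 0.179 to 0.237 log2 units. That mean includes Gzmb, which was too low to be tested and whose 6 reads in aged animal 3 raise the mean there. Ccl5, a chemokine gene of cytotoxic lymphocytes, had 141, 94 and 97 reads in young and 329, 120 and 108 reads in aged donor hearts, with aged animal 3 the highest. The same measure was applied to Cd8a and Cd2 after their values were seen. For Cd8a the nearest were the macrophage scavenger receptor gene Msr1 (0.338 log2 units), the Fc receptor gene Fcgr1a (0.415) and Pak1 (0.528), and Cd8b ranked 116 with 0.887. Msr1 had 106, 73 and 3392 reads in young and 11805, 6864 and 4920 reads in aged donor hearts, with young animal 15 apart from its group as for Cd8a. For Cd2 the nearest were Ccl3, Met and Nr6a1, at 0.230 to 0.271 log2 units, and Ptprc ranked 990. With 6 hearts, such likeness describes these libraries and shows nothing of shared control.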

How the data were processed

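Polyadenylated RNA of left ventricular myocardium was sequenced in 3 young and 3 aged donor hearts, each kept as a replicate. The authors deposited raw read counts per gene and, beside them, FPKM values (reads divided by the listed gene length and by the library total). The submitters' processing notes list HISAT2 2.0.5, featureCounts 1.5.0-p3, StringTie 1.3.3b, DESeq2 1.16.1 and the build Rnor_6.0, without saying how each was used. Use of strand is not given in the sources used here. FPKM recomputed from the counts matched the deposited FPKM within a relative tolerance of 0.001 in all but 1 of 133500 values. FPKM was used only to compare levels between genes.

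The counts were fitted with edgeR 4.0.16 under R 4.3.3 (filterByExpr, TMM, quasi-likelihood test without covariates), with DESeq2 1.42.0 and limma 3.58.1 as alternatives. Log2 CPM used a prior count of 2. Standard errors (SE) are the log2FC over the square root of the F statistic. Fold change limits came from the study. Adjusted p-values are Benjamini-Hochberg over the genes of each fit. These were 13784 in edgeR with all 6 hearts and in limma-voom, 13751 in DESeq2, and 14109 in edgeR without young animal 15. P-values set the difference between the groups against the variation between these hearts. Steps were tested on simulated data.

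The 10 genes and all lists were chosen with earlier results of these data known. Named are the 10 genes, Ptprc, in each list the 3 smallest p-values and the highest mean CPM, and the 3 nearest genes of each pattern. Others named (Cd8b, Cd247, Cd48, Ncr1, Gzma, Ifng, Il2, related granzymes and every gene past the limits) were added after their values were seen. Of the listed symbols, Klrb1a, Fasl and Ttn were not found and not analysed here. A result on 1 gene of the lists is not reported here. Promoters came from RefSeq (GRCr8).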

Additional observations from a re-analysis of the deposited data

How the results depend on the processing

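Cd2 stayed past the limits and higher under all 12 alternatives on its fold change (2.17 to 2.92 on the log2 scale), although its adjusted p was above 0.05 with all 6 hearts in edgeR. The number of members higher and past the limits was 1. It was 0 with edgeR's Benjamini-Hochberg adjusted p, 2 with library totals alone and 2 with limma-voom with quality weights, and ran from 1 to 2 across the fits without 1 heart, the 2 being that without young animal 15. The number lower was 0 and became 2 (Nkg7 and Klrd1) with limma-voom with quality weights. Of the 6 lists, 32 genes were past the limits. It was 0 with edgeR's adjusted p, 51 with limma-voom, and 20 (without young animal 13) to 47 without 1 heart. Of all genes, 4436 were past the limits. It was 0 with edgeR's adjusted p (3492 with that of DESeq2, 7266 with that of limma-voom), 7504 with limma-voom before adjustment, and 2432 (without young animal 3) to 7214 (without young animal 15) without 1 heart. The cause of these changes was not tested.

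Library totals alone split all genes into 3147 higher and 1441 lower, against 1815 and 2621 with TMM, and moved the median of all genes to 0.46. Signs that changed were those of members within the spread between hearts. Cd3g was 0.084 and Nkg7 0.014 with library totals alone, Cd3e was -0.27 and Prf1 -0.89 with limma-voom, and Prf1 was -0.17 without young animal 15 and -0.83 without aged animal 3, within a range of -0.83 to 0.42 over the fits without 1 heart. The count of members with every aged donor heart below every young donor heart in the ratio to Ptprc was 1 and ran from 1 to 6 without 1 heart, with 4 without aged animal 4 and 6 without young animal 15. The median log2FC of the members ran from -0.36 (limma-voom) to 0.64 (library totals alone). With 26 to 75 reads in a heart for the 3 CD3 genes together, depth limits any statement on them. No paired analysis was possible because the groups share 1 animal number only, and it marks different animals.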

Other observations

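Mast cell markers, a tissue-resident leukocyte type outside the comparisons above, divided between the groups. Of 4 tested, 2 were lower and 1 higher by the limits used above, beside 19.0% and 13.2% of all genes tested. In 3 of the 4, every aged donor heart lay below every young donor heart in CPM, beside 20.6% of all genes tested. Ms4a2, the beta chain of the high-affinity IgE receptor, had 33, 30 and 32 reads in young and 9, 7 and 6 reads in aged donor hearts. Its log2FC was -2.69 (SE 0.386, adjusted p = 0.0916 by the edgeR quasi-likelihood test, Benjamini-Hochberg adjusted). Cpa3, the mast cell carboxypeptidase gene, had 120, 78 and 66 reads in young and 16, 18 and 35 reads in aged donor hearts, a log2FC of -2.55 (SE 0.544). Kit, a receptor that other cells of the heart also carry, was higher with overlapping groups, with a log2FC of 1.48 (SE 0.598) that was 0.58 without aged animal 3 and past the limits in 1 of the 6 fits without 1 heart, and Tpsab1 did not pass the limits. In unscaled reads, young animal 15 lay between the other young donor hearts in Ms4a2. In Cpa3 it was the lowest of its group but above every aged donor heart. In Cd8a, Tyrobp and Ptprc it was instead far above the other young donor hearts. Its TMM factor and read total were the largest of its group, so scaling lowers its values relative to theirs. The list was scanned as a set of 6 markers, and these genes are described after their values were seen.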
